A study of Mus musculus with 6 samples.

Results

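The imprinted growth genes H19, Igf2, Cdkn1c, Dlk1, Meg3, Peg3, Peg10, Mest, Plagl1 and Grb10 were examined in whole mouse hearts at embryonic day 13.5. They were taken by symbol, as the rows of the deposited count table whose identifier carries one of these names in the authors' gene list, which gave 10 of 45792 genes. All 10 had enough counts to be among the 17125 genes tested. RNA was sequenced from 3 control hearts and 3 Tie2Cre;Ino80 fl/fl hearts (called mutant here), in which a floxed Ino80 exon is removed by Cre under the Tie2 promoter. Ino80 is the ATPase of the INO80 chromatin remodelling complex, and Tie2Cre acts in endothelial cells, the endocardium and blood cells, so most cells of a mutant heart keep the gene. The labels give the strain of every heart as C57BL/6 and call the controls wild-type, whereas the methods of the study count as control every genotype other than Tie2Cre;Ino80 fl/fl and describe mixed backgrounds. The embryos of the study were of both sexes and were not sexed, so the sex of each heart is not known.

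Imprinted genes are expressed mainly from 1 parental allele, set by DNA methylation that one germ line lays down and somatic cells maintain. In the fetus, many paternally expressed genes promote growth and many maternally expressed genes restrain it. They lie in clusters, in which a methylated control region and often a long noncoding RNA act on several genes at once. In the embryonic heart, Igf2 made by the epicardium and endocardium is a known mitogen of the compact myocardium. The reads were counted per gene and not per allele, so every value below is the sum of both alleles, and the expressed allele named for a gene is background.

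The 10 genes lie in 8 imprinted clusters (positions from GENCODE vM21 on GRCm38). H19 (chr7:142575529-142578143, minus strand) and Igf2 (chr7:142650766-142666816, minus strand) are neighbours 72.6 kb apart that share enhancers. Cdkn1c (chr7:143458339-143461050, minus strand) belongs to the adjoining Kcnq1 cluster, and Peg3 (chr7:6703892-6730431, minus strand) sits on the same chromosome in a cluster of its own. Dlk1 (chr12:109452823-109463336) and Meg3 (chr12:109541001-109571726) are both on the plus strand with 77.7 kb between them. Peg10 (chr6:4747306-4760517) and Mest (chr6:30723547-30748465), both on the plus strand, mark separate clusters of chromosome 6. Grb10 (chr11:11930508-12038683, minus strand) and Plagl1 (chr10:13060504-13131694, plus strand) complete the set. H19 and Meg3 are long noncoding RNAs, and the other 8 genes code for proteins.

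Some members have other transcripts inside or against them, which matters because the setting for strand and overlaps is not given. Mest and Copg2 run into each other on opposite strands over 912 exonic bases, 23.1% of the exonic length of Mest. Meg3 shares 1228 exonic bases with an opposite transcript, and in the later annotation 625 bases of Cdkn1c lie under an antisense transcript that has no row in the count table. Likewise, 3596 exonic bases of Igf2 belong in the later annotation also to a longer transcript on the same strand, with no row in the count table either. Counts over these stretches cannot be assigned with certainty. H19 is also the primary transcript of miR-675, and an intron of Igf2 holds miR-483. Each hairpin has a row of its own in the count table, as do Mir335 within Mest and Mir770 and Mir1906-1 within Meg3. The mature forms of miR-675 and miR-483 (RefSeq, GRCm38.p6) are shown, with the seed, bases 2 to 8, in capitals:

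mmu-miR-675-5p: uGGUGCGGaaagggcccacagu

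mmu-miR-675-3p: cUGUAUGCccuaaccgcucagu

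mmu-miR-483-5p: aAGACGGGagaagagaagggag

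mmu-miR-483-3p: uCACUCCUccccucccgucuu

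No 2 of these 4 seeds are the same. The libraries were made from messenger RNA, so reads on these rows come from longer transcripts and not from the mature miRNAs. The Mir675 row, which lies wholly within an exon of H19, held 0 counts in all 6 hearts. A read on this row would also lie on H19, so this 0 depends on how overlaps were counted and measures no level. The Mir483 row held 5, 5 and 8 counts in the control hearts and 72, 24 and 14 in the mutant hearts. Scaled to library size these were 0.131, 0.170 and 0.247 CPM, the scaled count unit used throughout (a count as a share of the scaled library total, times 1e6), in controls and 0.779, 0.564 and 0.479 CPM in mutants, so that the groups did not overlap. The log2 difference of this row was 1.76 with a standard error (SE) of 0.39 (edgeR quasi-likelihood test, adjusted p = 0.0931). The Mir483 row was looked at after its values were known, and rests on few counts. The Mir335 row held 8, 4 and 7 counts in the control hearts and 24, 8 and 3 in the mutant hearts, and was not tested. The Mir770 and Mir1906-1 rows, within exons of Meg3, held 0 counts in all 6 hearts, which likewise measures no level.

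The promoters of Peg3, Meg3 and Mest are shown because these members gave 3 of the 4 largest differences below. Each covers 250 bases before to 50 bases after an annotated start (RefSeq, GRCm38.p6) and is written in the direction of transcription, with capitals for the motif GGGGCCCC, which PLAGL1, the protein of the member Plagl1, recognises:

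Peg3, chr7:6730370-6730669, minus strand: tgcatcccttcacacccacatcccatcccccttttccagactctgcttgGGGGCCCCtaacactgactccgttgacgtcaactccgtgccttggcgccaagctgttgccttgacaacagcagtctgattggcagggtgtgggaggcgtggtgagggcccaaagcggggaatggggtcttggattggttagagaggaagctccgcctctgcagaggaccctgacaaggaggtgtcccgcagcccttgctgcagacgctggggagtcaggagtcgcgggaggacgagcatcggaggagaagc

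Meg3, chr12:109540746-109541045, plus strand: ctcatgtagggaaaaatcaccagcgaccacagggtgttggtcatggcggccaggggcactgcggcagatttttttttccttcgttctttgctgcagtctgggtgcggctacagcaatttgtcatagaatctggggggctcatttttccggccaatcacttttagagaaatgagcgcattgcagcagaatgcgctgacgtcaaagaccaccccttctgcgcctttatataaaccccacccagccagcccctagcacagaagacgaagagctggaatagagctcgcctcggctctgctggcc

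Mest, chr6:30737800-30738099, plus strand: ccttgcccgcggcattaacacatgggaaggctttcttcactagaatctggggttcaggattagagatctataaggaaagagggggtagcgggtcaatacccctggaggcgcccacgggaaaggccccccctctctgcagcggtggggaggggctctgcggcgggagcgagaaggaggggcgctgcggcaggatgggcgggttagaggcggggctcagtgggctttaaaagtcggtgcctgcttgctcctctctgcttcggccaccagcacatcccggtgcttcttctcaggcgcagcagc

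Among 14 promoters found for 7 members (Dlk1, Grb10, Igf2, Meg3, Mest, Peg3 and Plagl1), GGGGCCCC occurred in 1, that of Peg3. It occurs in 1.08% of 32851 mouse promoters of this length. The E2F motifs TTTCCCGC and TTTGGCGC, found in 1.07% and 0.514% of all promoters, and the YY1 motif AANATGGC, found in 6.05%, were in 0 of the 14 (both strands searched). The Peg3 and Mest promoters shown are GC-rich, with 61.3% and 62.7% G and C, and the Meg3 promoter shown has 53.7%, against a median of 52.7% over all promoters. Promoters at other annotated starts had 59.3% and 62.0% for Mest and 50.3% for Meg3. Peg3 and its neighbour Usp29 start 147 bases apart on opposite strands, and the annotated start of Usp29 (chr7:6730578) lies within the Peg3 sequence above.

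The libraries held between 28948836 and 89675692 counts, the deepest being mutant replicate 1 and the shallowest mutant replicate 3. Ino80 itself was at 30.2, 31.6 and 32.7 CPM in the control hearts and 36.5, 33.7 and 31.8 CPM in the mutant hearts (log2 difference 0.11, SE 0.08, edgeR adjusted p = 0.473). A count over the whole gene and all cells of the heart does not test the loss of 1 exon in endothelial cells, so it does not check the labels. With edgeR's quasi-likelihood test, 0 of 17125 genes (0%) passed an adjusted p of 0.05, while 1624 (9.48%) were higher and 1709 (9.98%) lower in mutant hearts at an unadjusted p under 0.05. DESeq2, the program of the study, was run anew here and called 436 genes higher (2.52%) and 564 lower (3.26%) among 17318 with an adjusted p. The study itself reported fewer genes in each direction. Without control replicate 1, edgeR called 320 genes higher (1.85%) and 431 lower (2.49%) among 17290.

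The members spanned a wide range of levels in the heart. Levels are compared between genes as CPM per kilobase of merged exons. In control hearts H19 stood highest, at 1831 ± 157 CPM per kb (SD, n = 3), rank 33 of 17046 tested genes with a known length. Igf2 followed at 836 ± 90.6, rank 42. Mest at 333 ± 69.8, Grb10 at 252 ± 5.30, Cdkn1c at 150 ± 31.1 and Plagl1 at 93.5 ± 13.9 CPM per kb came next, and each of these lay wholly above the next one down. Peg3 at 19.01 ± 2.55 and Dlk1 at 18.7 ± 2.18 CPM per kb overlapped and could not be ordered. Peg10 at 9.67 ± 2.41 and Meg3 at 2.60 ± 0.90 CPM per kb were the lowest, although Meg3 is divided by merged exons of 18.1 kb that few of its isoforms span. In mutant hearts the order changed at 1 place beyond the spread. Cdkn1c, at 255, 262 and 293 CPM per kb, stood above Grb10, at 239, 217 and 246, whereas in controls each Grb10 value (247, 257 and 253) exceeded each Cdkn1c value (186, 129 and 134). The 10 genes took up 1.41% ± 0.17 of all counts in control hearts and 1.77% ± 0.10 in mutant hearts (SD, n = 3 each). Of these, H19 and Igf2 accounted for 0.91% ± 0.12 and 1.16% ± 0.08.

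**Figure D1:**
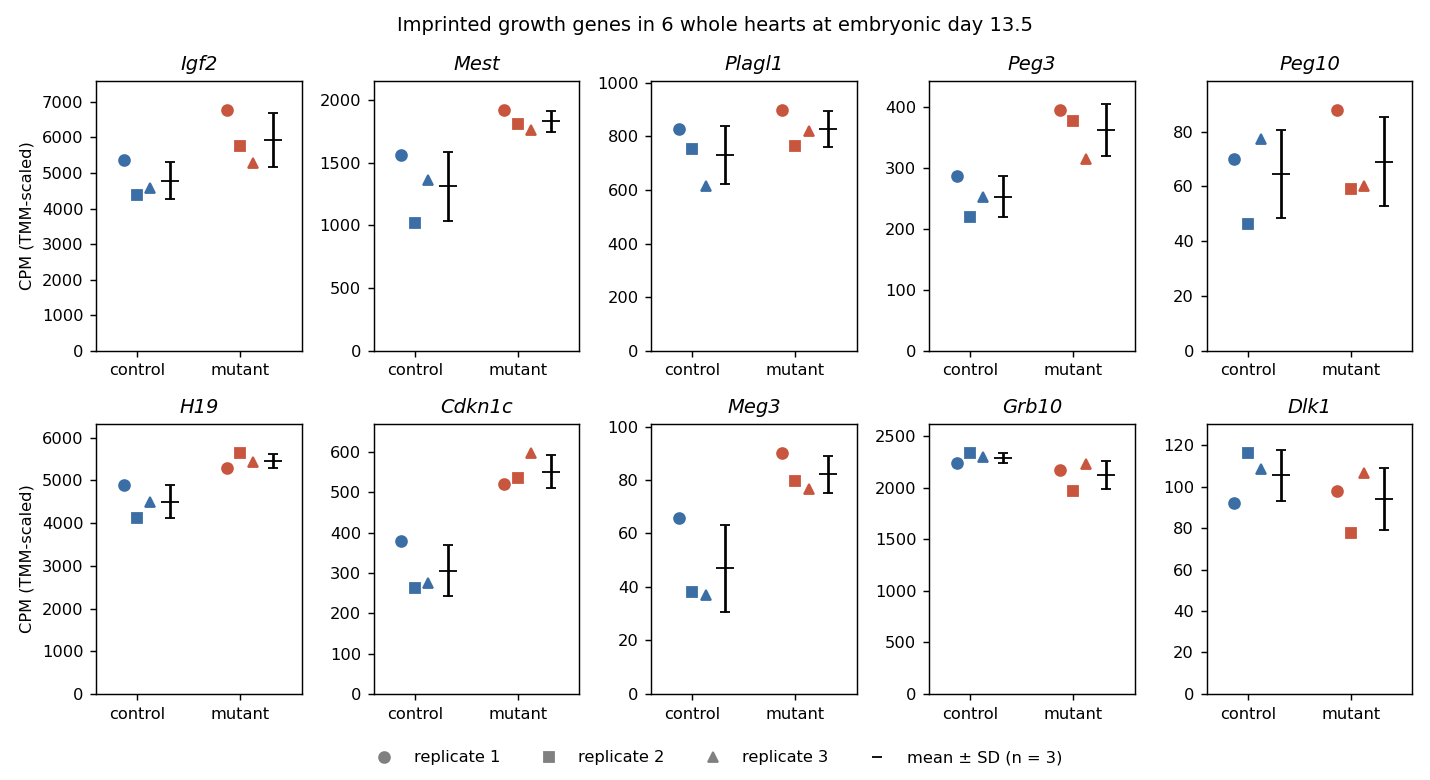
Each panel plots 1 of the 10 genes, with library-scaled CPM on a linear axis from 0; blue points are the 3 control hearts, red points the 3 mutant hearts, and the black bar is the mean ± SD. H19, Cdkn1c, Meg3, Peg3 and Mest show 3 mutant hearts above all 3 controls, Grb10 the reverse, and the other 4 genes overlap.

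The comparison of mutant with control hearts asks how these growth genes stand in a heart whose endothelium lacks Ino80. The maternally expressed Cdkn1c and Meg3 and the paternally expressed Peg3 and Mest were higher in every mutant heart than in any control, by 1.80-fold, 1.75-fold, 1.43-fold and 1.39-fold. H19 and Igf2 were higher by 1.21-fold and 1.24-fold, Plagl1 and Peg10 by less, and Dlk1 and Grb10 were lower on average. Of the 10 members, 8 had a positive and 2 a negative difference, with a median of 0.29 on the log2 scale, beside 8509 positive and 8616 negative among all tested genes with a median of -0.0017. None of the 10 passed the adjusted p of edgeR. At an unadjusted p under 0.05, 6 members were higher and 0 lower, where 9.48% and 9.98% of all genes were. Fits that left out 1 heart gave 4 to 6 members higher and 0 lower at this cutoff, beside 1168 to 1958 of all genes higher and 1164 to 1981 lower. The groups did not overlap in 5 members that were higher and 1 that was lower, against 14.3% and 12.8% of all genes. DESeq2 called 4 of the 10 members higher, Cdkn1c, Meg3, Peg3 and Mest, and 0 lower, beside 2.52% and 3.26% of all genes with an adjusted p.

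Igf2, the insulin-like growth factor that drives fetal growth, was at 5372, 4391 and 4592 CPM in the control hearts and 6776, 5747 and 5271 CPM in the mutant hearts. The groups overlapped, because mutant replicate 3 was below control replicate 1. Its log2 difference was 0.31 (SE 0.13, 95% interval 0.01 to 0.61, edgeR adjusted p = 0.243), and 0.20 without mutant replicate 1.

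Mest, an enzyme of the alpha/beta hydrolase fold found in embryonic mesoderm, had 1560, 1016 and 1362 CPM in controls and 1922, 1810 and 1760 CPM in mutants. All 3 mutant hearts exceeded all controls, and they lay closer together than the controls, whose lowest value was replicate 2. The log2 difference was 0.48 (SE 0.15, edgeR adjusted p = 0.163; DESeq2 adjusted p = 0.0246).

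Peg3, a large zinc finger protein, gave 288, 220 and 252 CPM in control hearts and 396, 377 and 315 CPM in mutant hearts. The lowest mutant heart, replicate 3, was still above the highest control. Its log2 difference was 0.52 (SE 0.12, edgeR adjusted p = 0.106; DESeq2 adjusted p = 0.00429).

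Plagl1, a zinc finger transcription factor that acts on other imprinted genes, ranged from 613 to 826 CPM in controls and from 765 to 899 CPM in mutants. These ranges overlapped, and the log2 difference was 0.18 (SE 0.12, edgeR adjusted p = 0.439), between 0.07 without control replicate 3 and 0.28 without control replicate 1. Peg10, a gene derived from a retrotransposon that the placenta requires, was at 70.0, 46.4 and 77.1 CPM in controls and 87.9, 59.1 and 60.1 CPM in mutants. Only mutant replicate 1 was above the controls, and the log2 difference of 0.10 (SE 0.21, edgeR adjusted p = 0.818) turned negative when that heart, or control replicate 2, was left out. Dlk1, a membrane protein related to Notch ligands, had 92.1, 116 and 108 CPM in controls and 97.9, 77.8 and 107 CPM in mutants. Its groups overlapped and its log2 difference was -0.17 (SE 0.13, edgeR adjusted p = 0.497), between -0.26 without mutant replicate 3 and -0.04 without mutant replicate 2.

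H19, a long noncoding RNA that restrains growth, had 4895, 4125 and 4492 CPM in the control hearts. The mutant hearts had 5300, 5638 and 5428 CPM, all above the controls. This was a small difference between abundant transcripts, 0.28 on the log2 scale (SE 0.10, edgeR adjusted p = 0.195; DESeq2 adjusted p = 0.0519).

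Cdkn1c, the cyclin-dependent kinase inhibitor p57, showed the largest difference of the 10. The control hearts were at 378, 263 and 274 CPM and the mutant hearts at 520, 534 and 597 CPM. Every mutant heart lay above every control, and control replicate 1 was the control nearest to them. The log2 difference was 0.85 (SE 0.14, 95% interval 0.52 to 1.18), with an adjusted p of 0.0763 by edgeR and 9.29e-07 by DESeq2.

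Meg3, the long noncoding RNA of the Dlk1 cluster, was at 65.8, 38.1 and 37.1 CPM in controls and 90.0, 79.5 and 76.7 CPM in mutants. Control replicate 1 again stood between the other 2 controls and the mutants. Its log2 difference was 0.80 (SE 0.21, 95% interval 0.32 to 1.28), with an adjusted p of 0.121 by edgeR and 0.00274 by DESeq2.

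Grb10, an adaptor that damps signalling from the insulin and IGF receptors, was the member with the smallest SD relative to its mean in control hearts. Its controls were at 2243, 2338 and 2298 CPM and its mutants at 2176, 1974 and 2236 CPM. The mutants were all below the controls, but mutant replicate 3 by a few CPM only. The log2 difference was -0.11 (SE 0.09, edgeR adjusted p = 0.521), and -0.06 without mutant replicate 2.

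**Figure D2:**
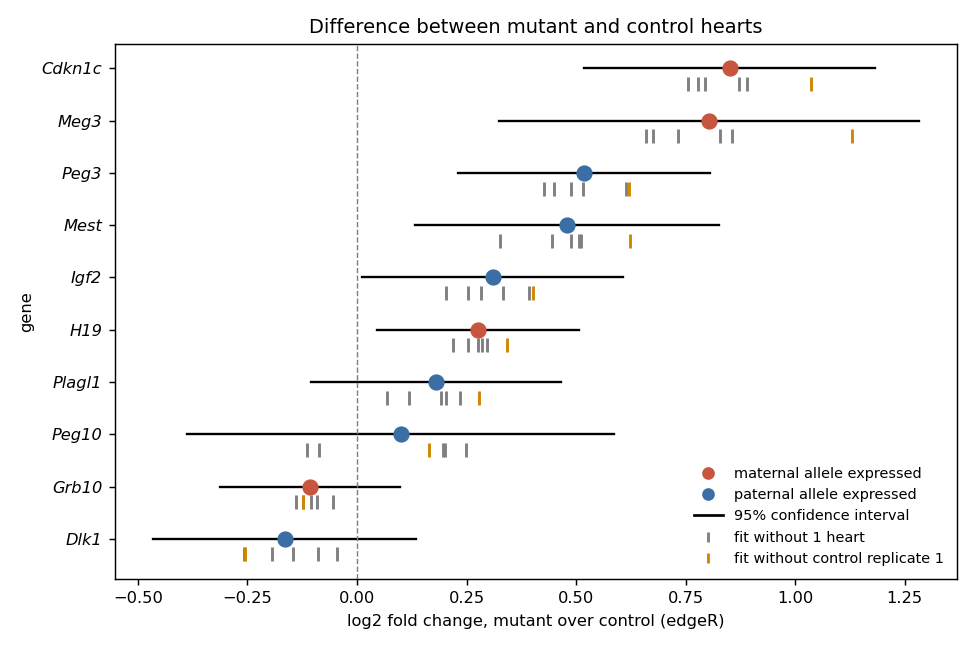
Points give the log2 difference of each gene (mutant over control, edgeR; the x axis is a log2 scale) and horizontal lines its 95% interval, coloured by the allele known to be expressed; ticks beneath are refits without 1 heart, orange where control replicate 1 was left out. Cdkn1c and Meg3 lie farthest to the right, and their orange ticks, at 1.04 and 1.13, farther still.

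Whether members were called depended on the program, on the filter of low counts and on control replicate 1. This heart was the highest control in 7 of the 8 members with a positive difference, which was so in 43.8% of all genes with a positive difference and in 57.9% of those higher at an unadjusted p under 0.05. Without it, edgeR called 3 of the 10 members higher and 0 lower: Cdkn1c (log2 difference 1.04, adjusted p = 0.00526), Meg3 (1.13, adjusted p = 0.0040) and Peg3 (0.62, adjusted p = 0.0437). This fit leaves 2 controls, and it called 1.85% of all genes higher and 2.49% lower. The 5 fits that left out another heart called 0 members each.

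By expressed allele, the 4 maternally expressed members had a median log2 difference of 0.54 and the 6 paternally expressed members a median of 0.25. In each set 3 were higher at an unadjusted p under 0.05, as were 9.48% of all genes. Other imprinted genes, described below, had medians of 0.057 (24 maternally expressed) and 0.063 (20 paternally expressed), with 3 higher in each set. Both alleles' genes were therefore among those that stood higher. Ratios within a heart, which do not depend on library scaling, compared neighbours in the genome and a ligand with its receptor. H19 counts over Igf2 counts were 0.911, 0.939 and 0.978 in controls and 0.782, 0.981 and 1.03 in mutants. The ranges overlapped and the means were nearly equal on the log2 scale (difference -0.03, exact two-sided permutation p = 1). Meg3 over Dlk1 was 0.714, 0.328 and 0.342 in controls and 0.920, 1.02 and 0.718 in mutants. Here all mutants were above the controls, though mutant replicate 3 barely exceeded control replicate 1, and the log2 difference of 1.03 had an exact two-sided permutation p of 0.1 (0.3 after adjustment over the 3 ratios), the smallest that 3 against 3 hearts can give. Igf2 over Igf2r, the receptor that clears IGF2 from the cell surface, averaged 4.81 ± 0.98 in controls and 4.84 ± 0.28 in mutants (SD, n = 3 each; log2 difference 0.03, exact two-sided permutation p = 0.8).

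**Figure D3:**
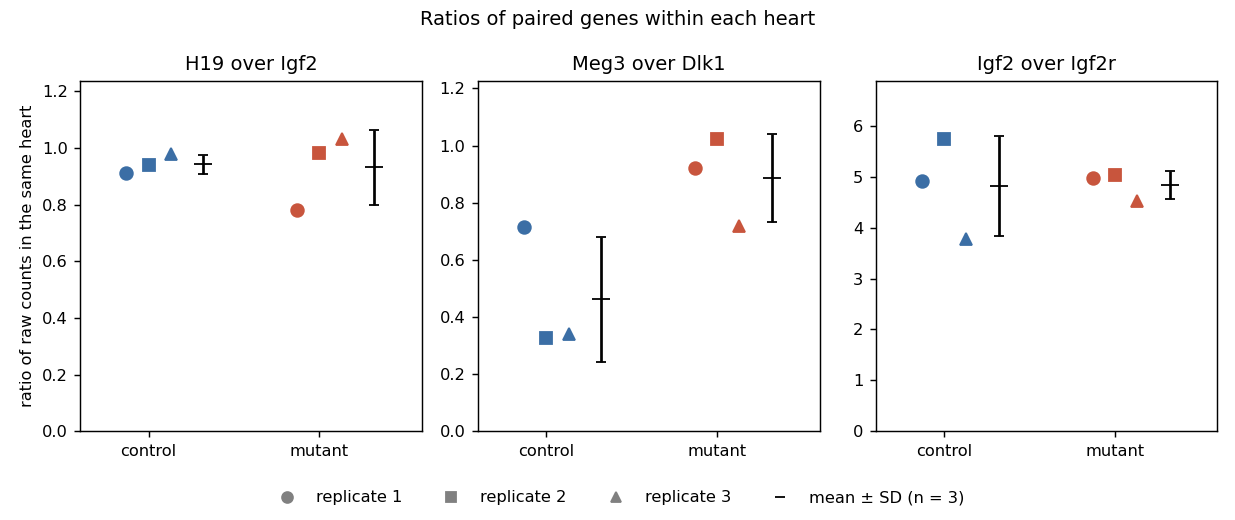
Each panel shows the ratio of the raw counts of a pair of genes in the same heart, on a linear axis from 0, with 3 control hearts in blue, 3 mutant hearts in red and the mean ± SD in black. The ratio of Meg3 to Dlk1 runs from 0.328 to 0.714 in controls and from 0.718 to 1.02 in mutants, while the ratios of H19 to Igf2 and of Igf2 to Igf2r overlap.

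The neighbours of the members in their clusters did not all stand on the same side. In the Dlk1 cluster, the maternally expressed noncoding RNAs downstream of Meg3 were Rian and Mirg. Rian was at 121, 84.9 and 82.4 CPM in controls and 114, 124 and 109 CPM in mutants. Mirg, a scarce transcript, was at 1.81, 1.84 and 1.39 CPM against 3.55, 3.22 and 2.09 CPM. The groups overlapped for Rian (log2 difference 0.26, SE 0.15, edgeR adjusted p = 0.346) and not for Mirg (0.82, SE 0.25, adjusted p = 0.157). The paternally expressed Rtl1 stayed under 1 CPM in all hearts, with a log2 difference of -0.21 (SE 0.35), and Dio3, the deiodinase gene at the far end, had at most 0.0525 CPM and was not tested.

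Kcnq1, a potassium channel gene of the cluster of Cdkn1c, stood on the opposite side from it. It was at 28.6, 42.9 and 39.7 CPM in control hearts and 21.6, 22.2 and 23.8 CPM in mutant hearts. All mutants were below all controls, and control replicate 1 was the nearest to them here as well. The log2 difference was -0.72 (SE 0.14, edgeR adjusted p = 0.0833; DESeq2 adjusted p = 0.000402). Kcnq1ot1, the antisense RNA whose paternal transcription silences the cluster, ranged from 6.09 to 8.67 CPM in controls and from 7.32 to 9.32 CPM in mutants (log2 difference 0.26, SE 0.17, edgeR adjusted p = 0.408). These are overlapping ranges. Slc22a18 was under 1 CPM (log2 difference 0.43, SE 0.38), Phlda2 had 0.0788 to 0.376 CPM over the 6 hearts and was not tested, and Ins2, beside Igf2, had at most 0.247 CPM.

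Usp29, which faces Peg3 across their shared start region and is also paternally expressed, was at 7.30, 6.60 and 5.99 CPM in controls and 10.6, 9.19 and 8.44 CPM in mutants. The groups did not overlap, and the log2 difference of 0.51 (SE 0.14) was close to the 0.52 of Peg3 (edgeR adjusted p = 0.125; DESeq2 adjusted p = 0.0432). Zim1, the maternally expressed zinc finger gene next to them, had a log2 difference of 0.02 (SE 0.17). Beside Peg10, the paternally expressed Sgce had a log2 difference of -0.14 (SE 0.08) and the maternally expressed Ppp1r9a of 0.04 (SE 0.09). Copg2, opposite Mest, differed by 0.13 (SE 0.08) and Ddc, beside Grb10, by -0.04 (SE 0.32). The lowest edgeR adjusted p among these 5 genes was 0.371, for Copg2.

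**Figure D4:**
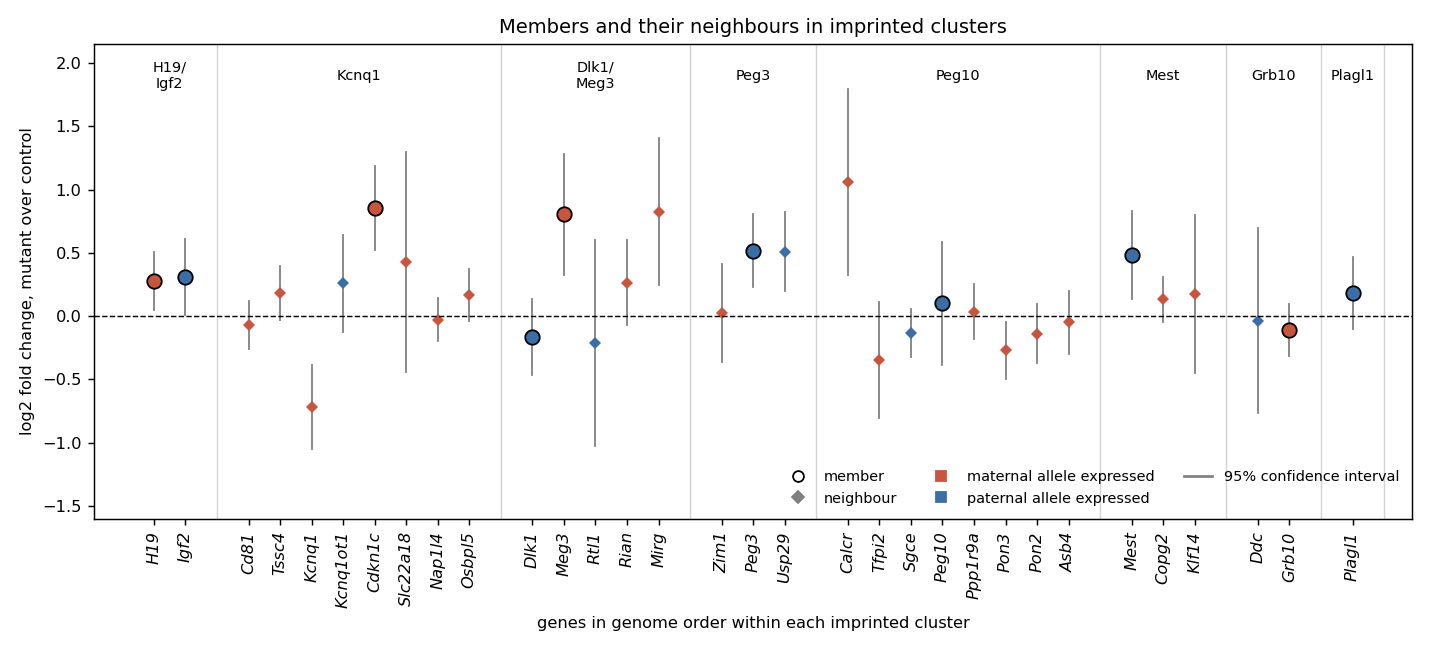
The y axis is the log2 difference, mutant over control, with vertical lines for its 95% interval, and genes follow each other in genome order within 8 imprinted clusters; large outlined points are members, small diamonds neighbours, red for maternally and blue for paternally expressed genes. Cdkn1c at 0.85 and Kcnq1 at -0.72 stand on opposite sides of 0 within 1 cluster, and Peg3 at 0.52 and Usp29 at 0.51 side by side.

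Among 54 other imprinted genes, 53 were found and 45 tested. Of these, 27 were positive and 18 negative, with a median log2 difference of 0.07. At an unadjusted p under 0.05, 6 were higher and 2 lower (Kcnq1 and Pon3, the latter named after its values were seen), beside 9.48% and 9.98% of all genes. The groups did not overlap in 6 higher and 4 lower, beside 14.3% and 12.8% of all genes. None passed the adjusted p of edgeR. DESeq2 called 2 higher, Nnat and Usp29, and 1 lower, Kcnq1, beside 2.52% and 3.26% of all genes with an adjusted p. The gene with the smallest p was Nnat, a paternally expressed membrane protein that modulates calcium stores. It was at 11.9, 8.00 and 7.56 CPM in control hearts and 20.1, 21.6 and 19.2 CPM in mutant hearts. The mutants were tightly grouped and all above the controls, of which replicate 1 was the highest. The log2 difference was 1.15 (SE 0.17, edgeR adjusted p = 0.0645; DESeq2 adjusted p = 1.22e-07). Peg12 differed by 0.37 (SE 0.11, edgeR adjusted p = 0.160) and Calcr, the calcitonin receptor, by 1.06 (SE 0.32, adjusted p = 0.152) at no more than 2.49 CPM, both without overlap.

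Of 20 genes around IGF signalling, 19 were tested, with 12 positive and 7 negative differences and a median of 0.10. At an unadjusted p under 0.05, 4 were higher and 2 lower, where 9.48% and 9.98% of all genes were, and 0 passed the adjusted p of edgeR. The groups did not overlap in 4 higher and 1 lower, beside 14.3% and 12.8% of all genes. The 4 higher included the 3 RNA-binding proteins named for binding Igf2 messenger RNA. Igf2bp1 was at 70.8, 54.6 and 60.4 CPM in controls and 111, 95.3 and 80.0 CPM in mutants. Its log2 difference was 0.63 (SE 0.14, edgeR adjusted p = 0.0906; DESeq2 adjusted p = 0.0016), and those of Igf2bp2 and Igf2bp3 were 0.29 (SE 0.08) and 0.34 (SE 0.10), with edgeR adjusted p of 0.138 and 0.137.

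The binding proteins that hold IGFs outside the cell were on both sides. Igfbp2 was at 29.7, 14.1 and 20.4 CPM in controls and 38.5, 41.0 and 34.4 CPM in mutants. All mutants were higher, and the log2 difference was 0.82 (SE 0.23, edgeR adjusted p = 0.134; DESeq2 adjusted p = 0.0062). Igfbp7, which vascular endothelium also makes, was at 13.9, 17.7 and 25.0 CPM against 10.3, 10.9 and 12.3 CPM, lower in all mutants (log2 difference -0.76, SE 0.20, edgeR adjusted p = 0.122; DESeq2 adjusted p = 0.00664). Igfbp6, at 0.735 to 3.33 CPM over the 6 hearts, differed by -1.44 (SE 0.43) with overlapping groups (edgeR adjusted p = 0.151; DESeq2 adjusted p = 0.0224). The receptor Igf2r differed by 0.26 (SE 0.17, edgeR adjusted p = 0.414).

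Genes that maintain imprints had 17 positive and 3 negative differences among 20 tested of 22, with a median of 0.08. At an unadjusted p under 0.05, 6 were higher and 0 lower, beside 9.48% and 9.98% of all genes. Without control replicate 2 the 6 fell to 2, while the count higher over all genes fell from 1624 to 1285. The groups did not overlap in 6 higher and 0 lower, beside 14.3% and 12.8% of all genes. None passed the adjusted p of edgeR, and DESeq2 called Zfp57 and Uhrf1 higher, beside 2.52% of all genes with an adjusted p. Zfp57, the zinc finger protein that binds methylated imprint control regions, was at 18.3, 12.2 and 12.4 CPM in controls and 25.7, 21.5 and 18.8 CPM in mutants. Control replicate 1 came within 1 CPM of mutant replicate 3, and the log2 difference was 0.62 (SE 0.18, edgeR adjusted p = 0.146; DESeq2 adjusted p = 0.0258). Uhrf1, which brings DNMT1 to replicating DNA, was at 116, 115 and 120 CPM in controls and 140, 136 and 141 CPM in mutants. This gap was wide beside the spread of either group (log2 difference 0.25, SE 0.06, edgeR adjusted p = 0.106; DESeq2 adjusted p = 0.0309). Trim28, the corepressor of ZFP57, the histone methyltransferase Ehmt2 and the DNA methyltransferases Dnmt1 and Dnmt3a differed by 0.26, 0.23, 0.22 and 0.26 on the log2 scale. Their edgeR adjusted p lay between 0.186 and 0.207.

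**Figure D5:**
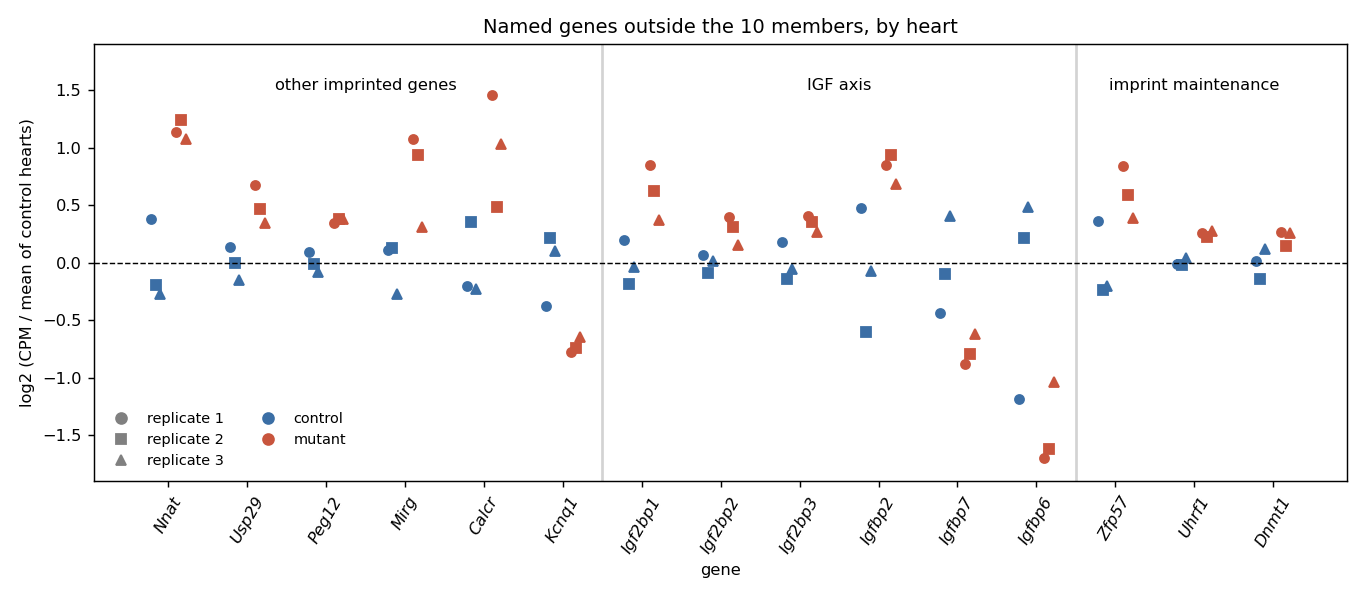
The y axis is the log2 of CPM over the mean of the 3 control hearts, with control hearts in blue and mutant hearts in red, for named genes of the other imprinted, IGF and imprint maintenance lists. Nnat, Igf2bp1 and Zfp57 have all mutants above the controls, Kcnq1 and Igfbp7 all mutants below, and Igfbp6 overlaps.

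In whole hearts, fewer cells of a type and less RNA per cell cannot be told apart, and so marker levels were set beside the members. Before adjustment, the 0.05 cutoff of edgeR was met by 9.48% of all genes on the higher side and 9.98% on the lower side. Groups of single genes lay apart in 14.3% (mutants higher) and 12.8% (mutants lower), shares that do not apply to summed levels. Summed CPM of 8 cardiomyocyte markers was 21548 to 26317 in controls and 21879 to 23155 in mutants, with 5 of the 8 lower on average. The other 3 were higher, and 2 of them, Myl7 (log2 difference 0.69, SE 0.20, edgeR adjusted p = 0.139; DESeq2 adjusted p = 0.0072) and Myh6 (0.48, SE 0.16, edgeR adjusted p = 0.180; DESeq2 adjusted p = 0.0397), both abundant in atria, were higher without overlap and at an unadjusted p under 0.05. The 8 endothelial markers summed to 853 to 1084 CPM in controls and 1013 to 1096 CPM in mutants, with 0 at an unadjusted p under 0.05. The labelled tissue thus carried its defining markers. The summed level of 5 coronary capillary markers did not overlap, at 379 to 607 CPM in controls and 273 to 299 CPM in mutants, with 4 of the 5 lower at an unadjusted p under 0.05. Control replicate 1 was the lowest control here, next to the mutants, as it was the nearest to them for Cdkn1c and Meg3. The 6 epicardial markers, from cells that make Igf2, summed to 168 to 178 CPM in controls and 184 to 209 CPM in mutants, also without overlap, with 4 of 6 higher and 1 at an unadjusted p under 0.05. The sums of 7 mesenchymal markers, at 2712 to 3871 and 2481 to 3336 CPM, overlapped, but 5 of the 7 were lower on average and 3 of them, Postn, Dcn and Lum (named after their values were seen), at an unadjusted p under 0.05. Erythroid markers ranged from 4119 to 18286 CPM in controls and from 2749 to 5011 CPM in mutants, with all 6 genes lower on average and 3 at an unadjusted p under 0.05, and control replicate 1, the lowest control, lay within the range of the mutants. The part of these shifts in the levels of the members was not tested. Liver markers, from an embryonic tissue rich in H19, Igf2 and Dlk1, summed to at most 2.01 CPM in any heart, skeletal muscle markers to at most 0.893 CPM and lung markers to at most 0.0340 CPM.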

How the data were processed

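RNA from 6 embryonic hearts, 3 per group, was compared. The authors aligned 76 bp paired-end reads with STAR 2.4.2a to GRCm38 with GENCODE vM6, and the deposited raw counts per gene come from summarizeOverlaps, whose mode and strand setting are not given in the sources used here. A further deposited table holds the authors' DESeq2 fold changes, p-values and mean normalized signal; only its gene symbols were used. Columns were matched to samples by title, and groups were taken from the genotype labels.

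Counts were tested in R 4.3.3 with edgeR 4.0.16 (with limma 3.58.1; TMM scaling, filterByExpr with a minimum count of 10 and a minimum total of 15, quasi-likelihood F test, condition only), with Benjamini-Hochberg adjustment over all 17125 genes at 0.05. SE is the log2 difference divided by the square root of F. CPM are TMM-scaled. The fit was tested on simulated data. DESeq2 1.42.0 (genes with at least 1 count), RLE scaling, other filters, a replicate block and leaving out each heart were alternatives. Library totals ranged from 28948836 to 89675692 counts. No pair of replicates was alike within sampling noise (lowest chi-square per degree of freedom 20.5). Exonic lengths and positions came from GENCODE vM21 (45229 of 45792 identifiers matched).

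The members and lists were chosen with earlier results of these data known. Beyond the members, the rule named, from each list, the genes past the adjusted threshold, the 6 with the smallest p at 1 CPM or more, and neighbours of members.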

Additional observations from a re-analysis of the deposited data

How the results depend on the processing

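RLE scaling and a filter of 1 CPM in 3 hearts changed no call. DESeq2 and edgeR on all genes with at least 1 count called 436 and 262 genes higher and 564 and 341 lower. Of the members they called 4 and 3 higher, with log2 differences of 0.85 and 0.86 for Cdkn1c, 0.80 and 0.81 for Meg3 and 0.52 and 0.53 for Peg3; Mest, at 0.48, was called by DESeq2 alone. Of the other imprinted genes they called 2 and 1 higher and 1 and 1 lower, of the IGF genes 2 and 2 higher and 2 and 1 lower, and DESeq2 called 2 imprint maintenance genes higher. Leaving out each heart in turn gave 0 to 320 genes higher and 0 to 431 lower, 0 to 3 members higher, 0 to 2 other imprinted genes higher and 0 to 1 lower, 0 to 3 IGF genes higher and 0 to 2 lower, and 0 to 1 maintenance genes higher; for every list the highest count was the fit without control replicate 1. At an unadjusted p under 0.05 these fits gave 1168 to 1958 of all genes higher and 1164 to 1981 lower. Beside these stood 6 to 13 other imprinted genes higher and 1 to 3 lower. Of the IGF genes, 4 to 6 were higher and 2 to 5 lower, and 2 to 6 maintenance genes were higher. The 13 came from the fit without control replicate 1, in which 1958 of all genes were higher. Over the same fits the log2 difference ran from 0.43 to 0.62 for Peg3, 0.76 to 1.04 for Cdkn1c, 0.66 to 1.13 for Meg3, 0.33 to 0.62 for Mest, 0.20 to 0.40 for Igf2, 0.22 to 0.34 for H19, 0.07 to 0.28 for Plagl1, -0.26 to -0.04 for Dlk1, -0.14 to -0.06 for Grb10 and -0.11 to 0.25 for Peg10, which was -0.09 without control replicate 2 and -0.11 without mutant replicate 1. The difference in the log2 ratio of H19 to Igf2 ran from -0.11 to 0.09 and turned positive, at 0.093, without mutant replicate 1, and that of Igf2 to Igf2r ran from -0.14 to 0.16, being -0.14 without control replicate 3 and -0.0017 without mutant replicate 2. The cause of these shifts was not tested.

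The deviations of same-numbered hearts correlated at 0.02, -0.08 and -0.07 across genes, and those of control replicate 2 and mutant replicate 3 at 0.14. These values show no pairing by replicate number, but with 3 hearts per group they cannot exclude it. The study took litter mates as controls, and the litter of each heart is not known here. With the replicate number as a block, 1 gene was called higher and 13 lower, none of them a member. The log2 difference was then 0.87 for Cdkn1c and 0.85 for Meg3. For the log2 ratio of Meg3 to Dlk1, the mean paired difference equals the unpaired 1.03 by arithmetic. Its exact two-sided sign-flip p over the pairs was 0.25, the smallest that 3 pairs can give. Igf2, H19, Plagl1, Peg10, Dlk1 and Grb10 did not pass the adjusted p in any fit.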
